A study of Homo sapiens with 24 samples.

Results

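The genes described here are 7 members of clade B of the serpin family: SERPINB1, SERPINB6 and SERPINB9, which sit together on chromosome 6, and SERPINB2, SERPINB7, SERPINB8 and SERPINB10, which sit together on chromosome 18. They were taken by name from the 25680 genes measured in each of 3 tables of RNA levels. SERPINB10 was selected on its increase with the drug MI-503 in all 3 cell lines, so its MI-503 values are given as a description with no test. The question put to the other members was whether the chromosome 18 neighbours of SERPINB10 moved with it.

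The study sequenced polyadenylated RNA from 3 established human acute myeloid leukaemia cell lines, in 24 libraries that form 8 groups of 3. For MV411 the groups were DMSO (the solvent), MI-503 (2.5 µM, 3 days), AC220 (3 nM, 24 h) and both drugs. For MOLM13 and OCI-AML3 they were DMSO and MI-503 (2.5 µM, 4 days). MV411 and MOLM13 carry a fusion of the MLL (KMT2A) gene and an internal tandem duplication in the receptor kinase gene FLT3, whereas OCI-AML3 lacks the fusion and has a mutation of NPM1. MI-503 keeps menin from binding MLL proteins. AC220, or quizartinib, is an inhibitor of the FLT3 kinase. Each condition is thus represented by 1 or a few established lines grown in culture, and the 3-day and 4-day treatments differ between lines. The labels call the triplicates biological without saying how the cultures were separated, so p-values measure the spread between these libraries.

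Serpins are protease inhibitors that offer a flexible reactive centre loop to a protease, are cut there, and trap the enzyme in a covalent complex by a large change in shape. Clade B members lack a classical signal peptide and mostly stay inside the cell, where they are known for guarding it against its own granule and lysosomal proteases. SERPINB1 is known to inhibit the neutrophil serine proteases elastase, proteinase 3 and cathepsin G. SERPINB2 is plasminogen activator inhibitor type 2, which blocks urokinase and is strongly inducible in monocytes. SERPINB6 inhibits cathepsin G and trypsin-like enzymes, SERPINB8 inhibits the proprotein convertase furin, and SERPINB9 inhibits granzyme B. SERPINB10, also called bomapin, is an inhibitor found in myeloid cells, and SERPINB7 (megsin) is best known from skin and kidney.

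The 7 genes are copies of a common ancestral gene, which shows in their exon structure. In the GENCODE 29 models on hg38, SERPINB1, SERPINB6, SERPINB8 and SERPINB9 had 6 coding exons, and SERPINB2, SERPINB7 and SERPINB10 had 7. Every member had exactly 1 exon of 118 coding bases and 1 of 143. The 118-base exon is printed for the neighbours SERPINB10, SERPINB2 and SERPINB8 and for the chromosome 6 member SERPINB1, because it shows how far apart the copies are and thus whether their reads can be confused. Bases that differ from SERPINB10 at the same position are in capitals, and each sequence is read 5′ to 3′ on the coding strand.
SERPINB10, chr18:63919788-63919905, plus strand: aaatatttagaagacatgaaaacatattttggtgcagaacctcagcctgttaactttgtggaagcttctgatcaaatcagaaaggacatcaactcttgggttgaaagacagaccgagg
SERPINB2, chr18:63897727-63897844, plus strand: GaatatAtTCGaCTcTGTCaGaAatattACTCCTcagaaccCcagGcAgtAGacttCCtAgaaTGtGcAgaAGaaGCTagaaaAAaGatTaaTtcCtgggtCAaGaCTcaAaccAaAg
SERPINB8, chr18:63981721-63981838, plus strand: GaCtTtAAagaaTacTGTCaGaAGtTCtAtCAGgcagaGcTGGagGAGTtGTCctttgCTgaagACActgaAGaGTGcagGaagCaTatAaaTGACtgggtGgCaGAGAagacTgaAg
SERPINB1, chr6:2837882-2837999, minus strand: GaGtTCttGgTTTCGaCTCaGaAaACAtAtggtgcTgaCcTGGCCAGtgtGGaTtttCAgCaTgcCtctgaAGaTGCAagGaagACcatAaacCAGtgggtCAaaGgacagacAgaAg
Over these 118 bases SERPINB2 was 57.6% identical to SERPINB10, the highest share of the 6 other members. SERPINB1 followed with 54.2%, SERPINB9 with 53.4%, SERPINB8 with 52.5%, and SERPINB6 and SERPINB7 with 50.8% each. The longest exact run of bases that any pair of the 7 members shared in their longest coding transcripts was 28 bases, between SERPINB8 and SERPINB9, and SERPINB2 and SERPINB10 shared at most 11. Both are shorter than the 50-base reads.

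A different kind of overlap does concern SERPINB2 and SERPINB10. In GENCODE 29 SERPINB2 lies at 63871692 to 63903890 on chromosome 18 and SERPINB10 at 63897174 to 63936111, on the same strand. The gene models share 547 exon bases, through the SERPINB10-202 and SERPINB10-203 transcripts, while the longest SERPINB10 transcript shares 0 exon bases with SERPINB2. In RefSeq the spans do not overlap (SERPINB2 at 63887705 to 63903888, SERPINB10 at 63907958 to 63936111). The annotation used for counting is not given in the sources used here, so the assignment of reads in the shared exons is uncertain. The ratio of SERPINB10 to SERPINB2 reads, given further on, was not constant across groups. The SERPINB8 model (63969925 to 64019779) likewise shares 370 exon bases with HMSD, a gene with 1 read over all libraries.

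The reads assigned to genes per library were 23168887 to 26596469 in MV411, 23281330 to 27240357 in MOLM13 and 44364964 to 72994481 in OCI-AML3. Values below are normalised read counts. For MOLM13 and OCI-AML3 they are rescaled so that the typical gene does not move. On the scale deposited by the authors the median gene shifted by -0.54 (log2) in MOLM13 and by -0.16 in OCI-AML3 with MI-503. The deposited values are named as normalised to ERCC, a spike-in, whereas the rescaled changes are relative to the typical gene. Whether the shift reflects the total RNA of the cells was not tested. Changes are log2 differences ± standard error from limma with n = 3 libraries per group, with p-values adjusted over all genes tested by Benjamini-Hochberg, and a gene is called when the adjusted p is under 0.05. A gene was tested when at least 3 libraries of its table had a value of at least 10. This held for 5 of the 7 members in MV411 (SERPINB1, SERPINB2, SERPINB6, SERPINB8 and SERPINB10) and for 6 in MOLM13 and in OCI-AML3, where SERPINB9 joined them. SERPINB7 passed nowhere. SERPINB2 and SERPINB10 passed in MV411 and MOLM13 only through treated libraries, so that they had to differ there. Their values against DMSO with MI-503, alone or with AC220, in these lines, and every difference built on them, are therefore given as a description with no test. The cells are bulk samples, in which fewer cells of a type and less RNA per cell cannot be told apart.

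SERPINB10, the myeloid serpin, stood near the limit of detection in both MLL-fusion lines without drug and far above it with MI-503. In MV411 its values were 6.7, 6.0 and 6.8 with DMSO, against 199, 185 and 185 with MI-503. In MOLM13 the 3 DMSO libraries had 0, 1 and 3 reads, and the MI-503 libraries had values of 146, 137 and 136. In OCI-AML3 the gene was already at 458, 487 and 476 with DMSO and reached 5235, 4912 and 4725 with MI-503. All MI-503 libraries lay above all DMSO libraries in each line, which is how the gene was selected. The log2 change was 4.67 ± 0.202 in MV411 (25.4-fold), 6.14 ± 0.382 in MOLM13 (70.3-fold) and 3.38 ± 0.0457 in OCI-AML3 (10.4-fold). The values of the MLL-fusion lines depend on few reads: 578 reads against 20 in MV411, a ratio of 29.1 with an exact 95% counting interval of 18.7 to 48.0, and 409 against 4 in MOLM13, a ratio of 108 with an interval of 41.7 to 397. With a pseudocount of 8 in place of 1 the MOLM13 change was 4.00. Such intervals cover counting error only.

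**Figure D1:**
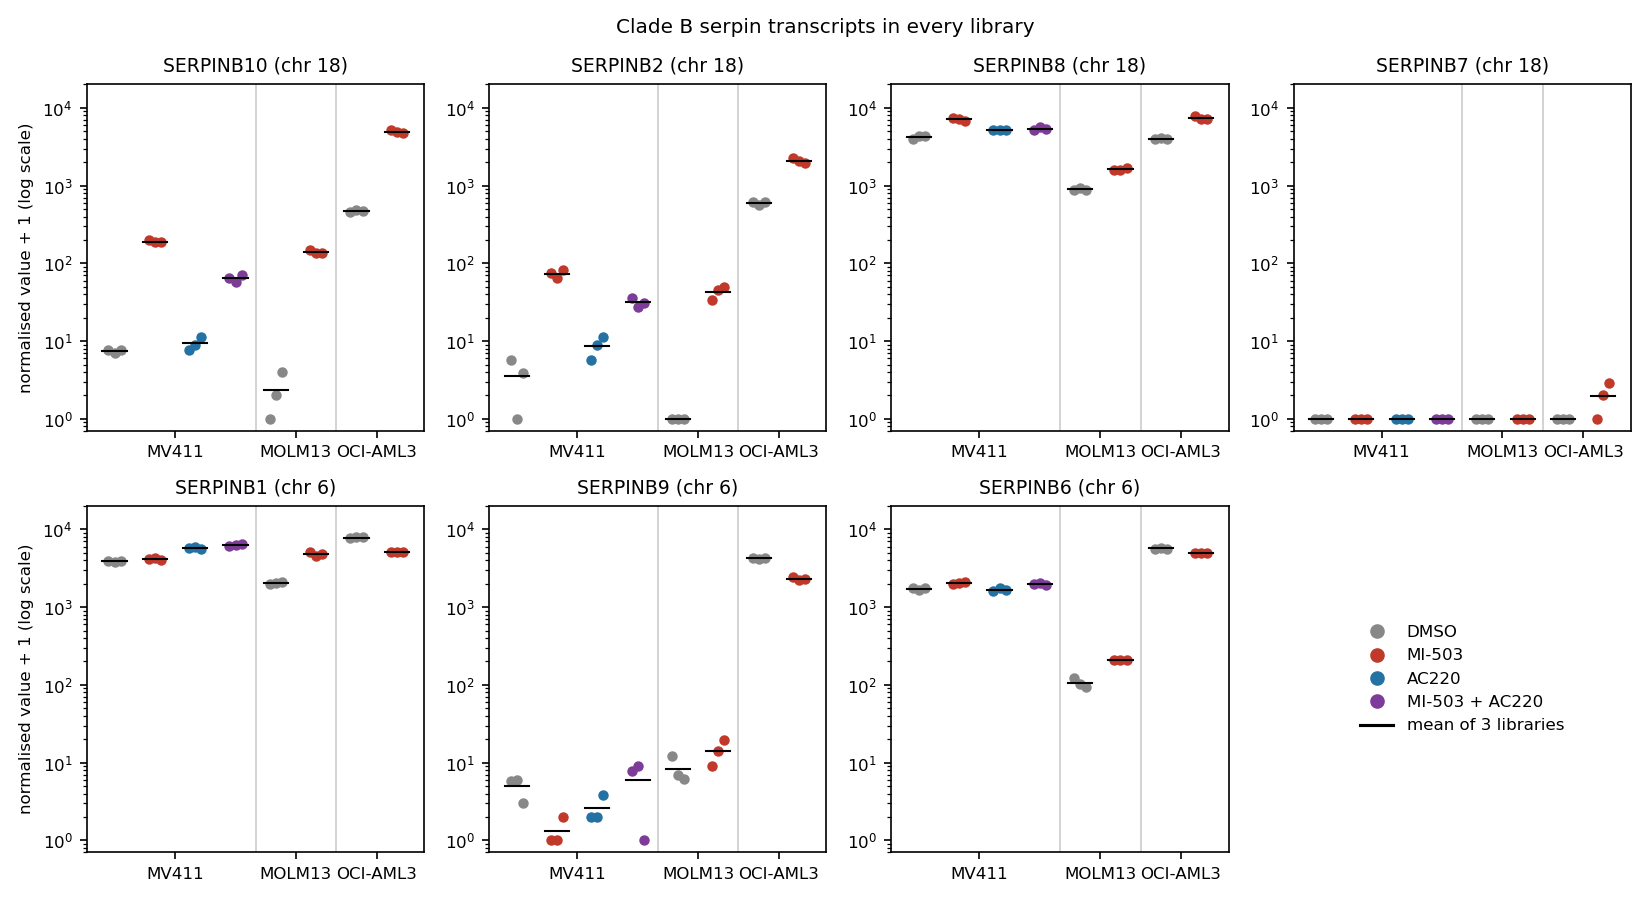
Normalised read counts (value + 1, log scale, y axis) of the 7 clade B serpins in the 8 groups (x axis), 1 panel per gene. Points are libraries and lines are the means of 3. SERPINB10 and SERPINB2 climb with MI-503 in each line, SERPINB9 is high in OCI-AML3 and near 0 elsewhere, and SERPINB7 stays at 0 to 2 reads.

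SERPINB2, the urokinase inhibitor whose first base lies 25.5 kb before that of SERPINB10, was higher with MI-503 in all 3 lines, and only OCI-AML3 allowed a test. In MV411 its values were 4.8, 0 and 2.9 with DMSO, against 74.2, 63.3 and 80.8 with MI-503. In MOLM13 there were 0 reads in each DMSO library, and the MI-503 libraries had values of 33.2, 44.9 and 49.0. OCI-AML3 had 619, 562 and 618 with DMSO, against 2239, 2066 and 1941 with MI-503. The groups did not overlap in any line, and only OCI-AML3 had a DMSO level well above the limit of detection. There SERPINB2 rose by 1.79 ± 0.0587 (3.47-fold, limma adjusted p = 1.24e-10). In reads, MV411 gave 222 against 8, a ratio of 27.9 with a counting interval of 13.9 to 65.5. MOLM13 gave 124 against 0, at least 43.5-fold higher with a floor of 3 reads over the DMSO group. The fitted log2 difference of such low values depends on the pseudocount and the scale: it was 4.70 in MV411, with 2.96 to 5.21 over the settings tried, and 5.42 in MOLM13, with 2.64 to 8.41.

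SERPINB8, the furin inhibitor whose first base lies 72.8 kb after that of SERPINB10, rose in all 3 lines, from a level that was high to begin with. MV411 went from 4007, 4328 and 4383 to 7471, 7134 and 6707. MOLM13 went from 872, 920 and 883 to 1590, 1597 and 1695. OCI-AML3 went from 3970, 4078 and 3955 to 7977, 7107 and 7161. The groups were wholly apart in each line, with changes of 0.74 ± 0.0449 (1.68-fold, adjusted p = 1.21e-12), 0.87 ± 0.0416 (1.82-fold, adjusted p = 1.65e-11) and 0.89 ± 0.0416 (1.85-fold, adjusted p = 3.10e-09) by limma. On the deposited scale the change was 0.34 in MOLM13, still called, and 0.73 in OCI-AML3, where the call was lost (adjusted p = 0.0639).

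SERPINB7, the fourth member of the chromosome 18 cluster, gave 0 reads in every library except 2 MI-503 libraries of OCI-AML3, which had 1 and 2. No change was detectable at this depth, and a total of 3 reads against 0 gives no fold. Of the clade B genes on the same chromosome that are not among the 7 members (SERPINB3, SERPINB4, SERPINB5, SERPINB11, SERPINB12 and SERPINB13), 0 of 6 passed the filter in any table. SERPINB12 reached 8, 6 and 14 reads in the MOLM13 MI-503 libraries, the highest of the 6. The cluster of skin and epithelial serpins that separates SERPINB10 from its distant flank was therefore at or near 0 in all 3 leukaemia lines. Keratinocyte markers were partly present, however: of 12 such genes 7 had no read in MV411 with DMSO, and in OCI-AML3 their summed value was 644 to 738 with DMSO and 1173 to 1211 with MI-503. Their part in the result was not tested.

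The genes around the cluster did not share a direction. Within 1 Mb of either end of SERPINB10 the tables held 15 other genes, of which 6 were tested: SERPINB2, SERPINB8 and 4 genes outside clade B. BCL2, which blocks apoptosis and lies on the minus strand and starts 577 kb before SERPINB10, fell by 1.08 in MV411 (adjusted p = 6.54e-15) and by 1.03 in OCI-AML3 (adjusted p = 6.50e-12), and stood at -0.08 in MOLM13 (adjusted p = 0.0606, limma). PHLPP1, a phosphatase of the AKT kinase, fell by 0.72 in MV411 and by 0.41 in OCI-AML3, and stood at -0.07 in MOLM13 (adjusted p = 0.168). KDSR, an enzyme of ceramide synthesis, rose by 0.50 in MV411 and 0.20 in MOLM13, and stood at 0.01 in OCI-AML3 (adjusted p = 0.847). VPS4B, an ATPase of endosomal sorting and the nearest tested gene outside clade B, 475 kb away, fell by 0.29 in MV411 and by 0.38 in OCI-AML3, and stood at 0.02 in MOLM13 (adjusted p = 0.647). Of these 4 genes 1 rose and 3 fell in MV411, 1 rose and 0 fell in MOLM13, and 0 rose and 3 fell in OCI-AML3. Their medians were -0.51, -0.03 and -0.40, beside medians over all genes tested of -0.01, -0.01 and -0.00. Of all genes tested 29.8% were called higher and 30.8% lower in MV411, 29.9% each way in MOLM13 and 32.8% each way in OCI-AML3. On the other side of SERPINB10 HMSD and LINC00305 were under the filter in every table.

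**Figure D2:**
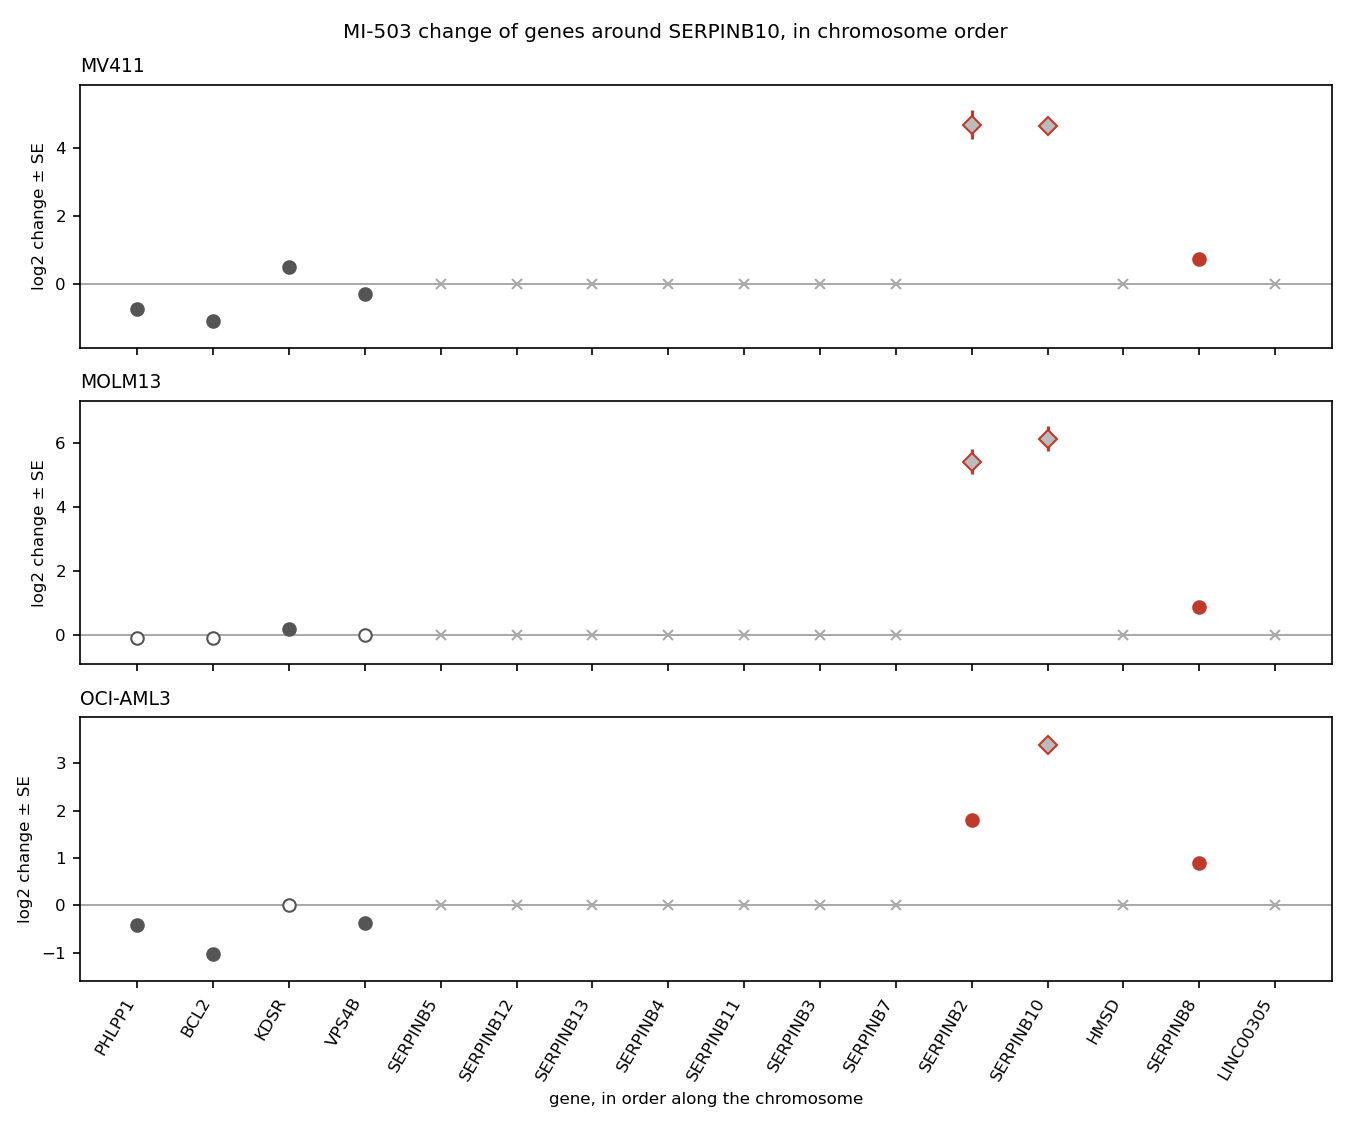
Log2 change with MI-503 (y axis) of the genes within 1 Mb of SERPINB10 on chromosome 18, in chromosome order (x axis), 1 panel per line. Red marks the clade B members and grey the other genes, filled circles were called by limma and white ones were not, grey diamonds are SERPINB10 and, in MV411 and MOLM13, SERPINB2 (no test), and crosses were under the filter. SERPINB2 and SERPINB8 lie above 0 in every line, while BCL2 lies at -1.08, -0.08 and -1.03.

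SERPINB2 and SERPINB8 are the neighbours that stood higher with MI-503 in every line, so the sequences before their starts are shown, from RefSeq promoters on GRCh38.p14. The table matched 6 of the 7 members and 5 of the 6 other clade B genes, with no entry used for SERPINB10 or SERPINB11. Matches to 6 motifs fixed for the search, on both strands, are in capitals: ETS (GAGGAA), C/EBP (TTNNGNAA), AP-1 (TGANTCA), STAT (TTCNNNGAA), HOX-PBX (TGATTNAT) and NF-kB. The HOX-PBX and AP-1 letters can overlap. Bases inside an exon of the gene's own GENCODE models are not printed.
SERPINB2, chr18:63887455-63887699, plus strand: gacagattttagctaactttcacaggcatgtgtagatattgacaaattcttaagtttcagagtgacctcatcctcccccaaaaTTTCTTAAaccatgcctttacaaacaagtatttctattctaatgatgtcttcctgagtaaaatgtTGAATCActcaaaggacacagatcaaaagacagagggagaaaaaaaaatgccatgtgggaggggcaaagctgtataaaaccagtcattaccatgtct
SERPINB8, chr18:63969831-63969924, plus strand: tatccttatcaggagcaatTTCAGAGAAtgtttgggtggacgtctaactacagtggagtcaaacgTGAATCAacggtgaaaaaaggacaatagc
In the 250 bases before its RefSeq start SERPINB2 had a C/EBP match 167 bases and an AP-1 match 102 bases before it. SERPINB8 had AP-1 matches at 185 and 28, a C/EBP match at 57 and a STAT match at 231. The matches at 57 and 28 lie in the 156 bases not printed, which begin at the first exon of its GENCODE models. An AP-1 match occurred in 6.57% of the 35116 promoters searched, a C/EBP match in 33.2% and a STAT match in 6.57%. ETS matches occurred in 23.6% of promoters, HOX-PBX in 2.48% and NF-kB in 1.73%, and neither SERPINB2 nor SERPINB8 had one in this window. SERPINB1 had a STAT match at 208, SERPINB9 had none, and the first entry of SERPINB6 had a C/EBP match at 248. The same letters also stood before clade B genes that were at or near 0 reads. AP-1 matches occurred before SERPINB5, SERPINB12, SERPINB13 and SERPINB7, and C/EBP matches before SERPINB3, SERPINB4, SERPINB5, SERPINB7 and SERPINB12, in at least 1 entry of each gene. A match is a description of letters and not evidence of binding.

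On chromosome 6 the 3 members lie side by side in the order SERPINB1 (2832332 to 2842006), SERPINB9 (2887266 to 2903280) and SERPINB6 (2948159 to 2972165), all on the minus strand. The tested members had the same sign within a line, above 0 in MV411 and MOLM13 and below 0 in OCI-AML3. SERPINB9 was under the filter in MV411 and went the other way there, with 1 read under MI-503 against 12 under DMSO. Its MOLM13 change did not pass. SERPINB1, the inhibitor of the neutrophil granule proteases, changed in a different way in each line. It had the highest level per length in 6 of the 8 groups when the longest coding transcript was taken as the length. In MV411 it went from 3949, 3774 and 3939 with DMSO to 4138, 4256 and 4081 with MI-503. In MOLM13 it went from 2008, 2046 and 2088 to 5049, 4571 and 4828. In OCI-AML3 it went from 7688, 7872 and 7868 to 5190, 5067 and 5164. It thus rose by 1.23 ± 0.0358 in MOLM13 (2.35-fold, adjusted p = 2.73e-14) and fell by 0.60 ± 0.0271 in OCI-AML3 (1.52-fold lower, adjusted p = 2.15e-09). On the deposited scale the MOLM13 rise was 0.70, still called. In MV411 the change was 0.10 ± 0.0392 (1.07-fold, limma adjusted p = 0.0363). That small call was lost without DMSO replicate 2 (0.08), without MI-503 replicate 1 (0.10) and without MI-503 replicate 2 (0.08), with an adjusted p of up to 0.144.

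SERPINB6, the inhibitor of cathepsin G, rose in the MLL-fusion lines and fell in OCI-AML3. MV411 had 1749, 1653 and 1762 with DMSO, against 1973, 2014 and 2105 with MI-503, a rise of 0.24 ± 0.0492 (adjusted p = 2.16e-04). MOLM13 had 122, 102 and 91.9 with DMSO, against 211, 210 and 206 with MI-503, a rise of 0.99 ± 0.110 (1.99-fold, adjusted p = 8.01e-07). OCI-AML3 had 5673, 5792 and 5574 with DMSO, against 4931, 4973 and 4905 with MI-503, a fall of 0.20 ± 0.0281 (1.15-fold lower, adjusted p = 4.45e-05, limma). The groups were apart in all 3 lines. On the deposited scale the MOLM13 value was 0.46 and still called, and the OCI-AML3 value was -0.36 and no longer called (limma adjusted p = 0.484).

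SERPINB9, the granzyme B inhibitor, separated the lines by its level. OCI-AML3 had 4266, 4218 and 4336 with DMSO, against 2420, 2212 and 2306 with MI-503, so it fell by 0.89 ± 0.0371 (1.85-fold lower, adjusted p = 1.16e-09, limma). MOLM13 had 11.2, 5.9 and 5.1 with DMSO, against 8.0, 13.2 and 18.6 with MI-503, which overlapped. The MOLM13 change of 0.77 ± 0.381 did not pass (adjusted p = 0.0926), and it passed when DMSO replicate 1 (1.07) or MI-503 replicate 1 (1.06) was left out. On the deposited scale it was 0.29 (adjusted p = 0.495). In MV411 the gene was under the filter, where DMSO libraries gave 5, 5 and 2 reads, MI-503 libraries 0, 0 and 1, AC220 libraries 1, 1 and 3, and combination libraries 6, 8 and 0. The MI-503 total of 1 read against 12 gives a ratio of 0.0839 with a counting interval of 0.00196 to 0.567. Its pseudogene SERPINB9P1, which lies between SERPINB1 and SERPINB9 with its nearer edge 12.7 kb from SERPINB1, had mean values of 13.2 with DMSO and 15.9 with MI-503 in OCI-AML3, so the reads counted for the copy were few beside those of SERPINB9.

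**Figure D3:**
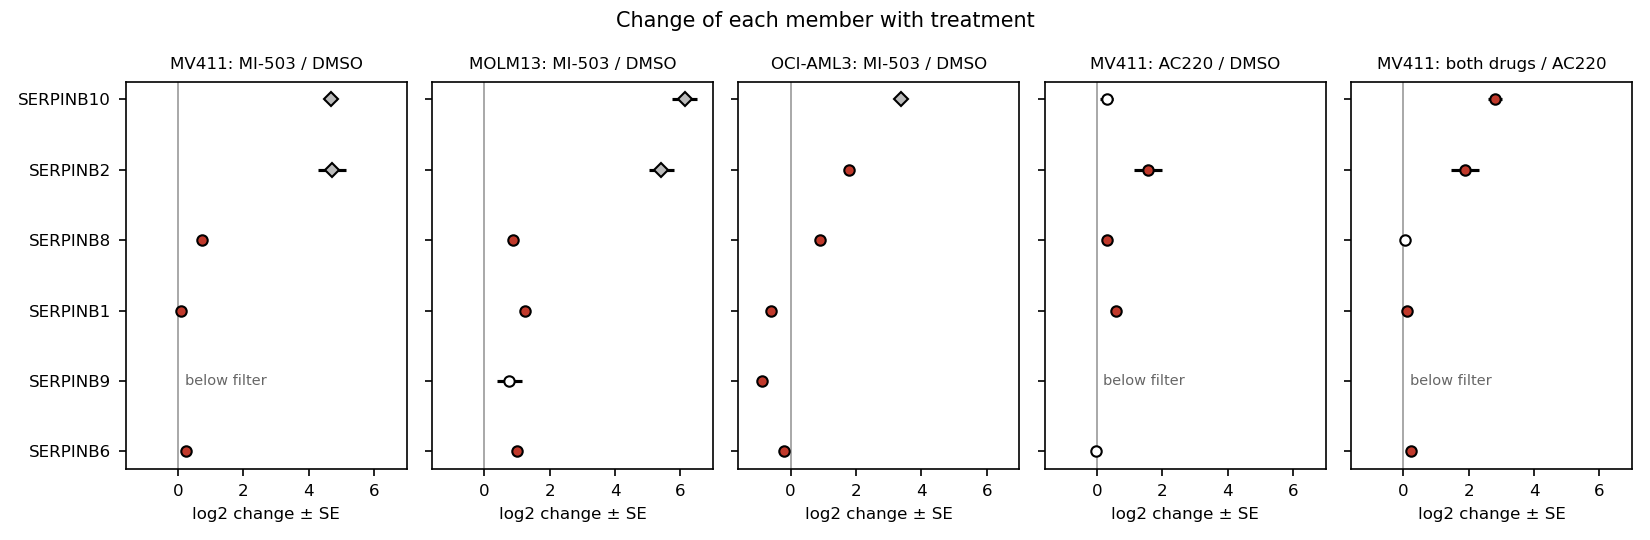
Log2 change ± standard error (x axis) of each clade B serpin (y axis) in 5 comparisons, 1 panel each, from limma with n = 3 libraries per group. Filled red points were called, white ones were not, and grey diamonds are values with no test (SERPINB10, and SERPINB2 in the MI-503 panels of MV411 and MOLM13). SERPINB8 lies at 0.74, 0.87 and 0.89 with MI-503 in the 3 lines, while SERPINB1 lies at 0.10, 1.23 and -0.60.

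Set beside all genes, the members' counts read as follows. SERPINB2 and SERPINB10 are left out of the counts for MV411 and MOLM13. With MI-503 in MV411 3 of 3 other tested members rose, where 29.8% of all genes tested were called higher and 30.8% lower. Their median was 0.24 beside -0.01 over all genes. In MOLM13 3 of 4 rose, where 29.9% of genes were called higher and 29.9% lower, with medians of 0.93 and -0.01. In OCI-AML3 2 of 5 rose and 3 fell, where 32.8% of genes were called in each direction, with medians of -0.20 and -0.00. The OCI-AML3 members divide by chromosome, with SERPINB2 and SERPINB8 higher and SERPINB1, SERPINB6 and SERPINB9 lower. Over all genes 4006 rose and 4009 fell in MOLM13 on the rescaled values, against 903 and 10270 on the deposited scale, and 5153 rose and 5146 fell in OCI-AML3, against 605 and 1071.

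The genes around the chromosome 6 trio were mixed as well. Within 1 Mb of the trio the tables held 16 other genes. Of the 12 tested in MV411 4 rose and 2 fell, of 10 in MOLM13 4 rose and 2 fell, and of 15 in OCI-AML3 6 rose and 6 fell. Of all genes tested 29.8% were called higher and 30.8% lower in MV411, 29.9% each way in MOLM13 and 32.8% each way in OCI-AML3. WRNIP1, a DNA repair ATPase and the nearest gene before the trio, stood at 0.10 in MV411 (adjusted p = 0.101) and -0.04 in MOLM13 (adjusted p = 0.427) and fell by 0.34 in OCI-AML3. LINC01011, the nearest after it, rose by 0.87, 0.95 and 0.89 in MV411, MOLM13 and OCI-AML3. It overlaps the start of NQO2, a quinone reductase gene on the same strand, which fell by 0.24 in MV411 and rose by 0.44 in MOLM13 and 0.69 in OCI-AML3, so the reads of the pair are hard to separate. TUBB2A, a tubulin gene with a near copy in TUBB2B next to it, passed the filter in MV411 only through DMSO libraries (mean 20.8, against 3.58 with MI-503), so it had to differ there, and it is 1 of the 2 counted as lower in that line. It rose by 0.46 in OCI-AML3. MYLK4, a kinase gene, rose by 0.49 in MV411 and fell by 1.26 in OCI-AML3, and stood at -0.11 in MOLM13 without passing. FAM50B fell by 0.87 in OCI-AML3 and stood at -0.10 in MV411 without passing. The transporter gene SLC22A23 fell by 0.62 in MOLM13 and by 0.30 in OCI-AML3, and stood at -0.05 in MV411 without passing. GMDS, an enzyme of fucose synthesis, rose by 0.51 in MV411 and 0.31 in OCI-AML3, and stood at -0.04 in MOLM13 without passing. HTATSF1P2, a pseudogene inside NQO2, rose by 0.84 in MOLM13 and 0.66 in OCI-AML3, and stood at 0.14 in MV411 without passing.

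**Figure D4:**
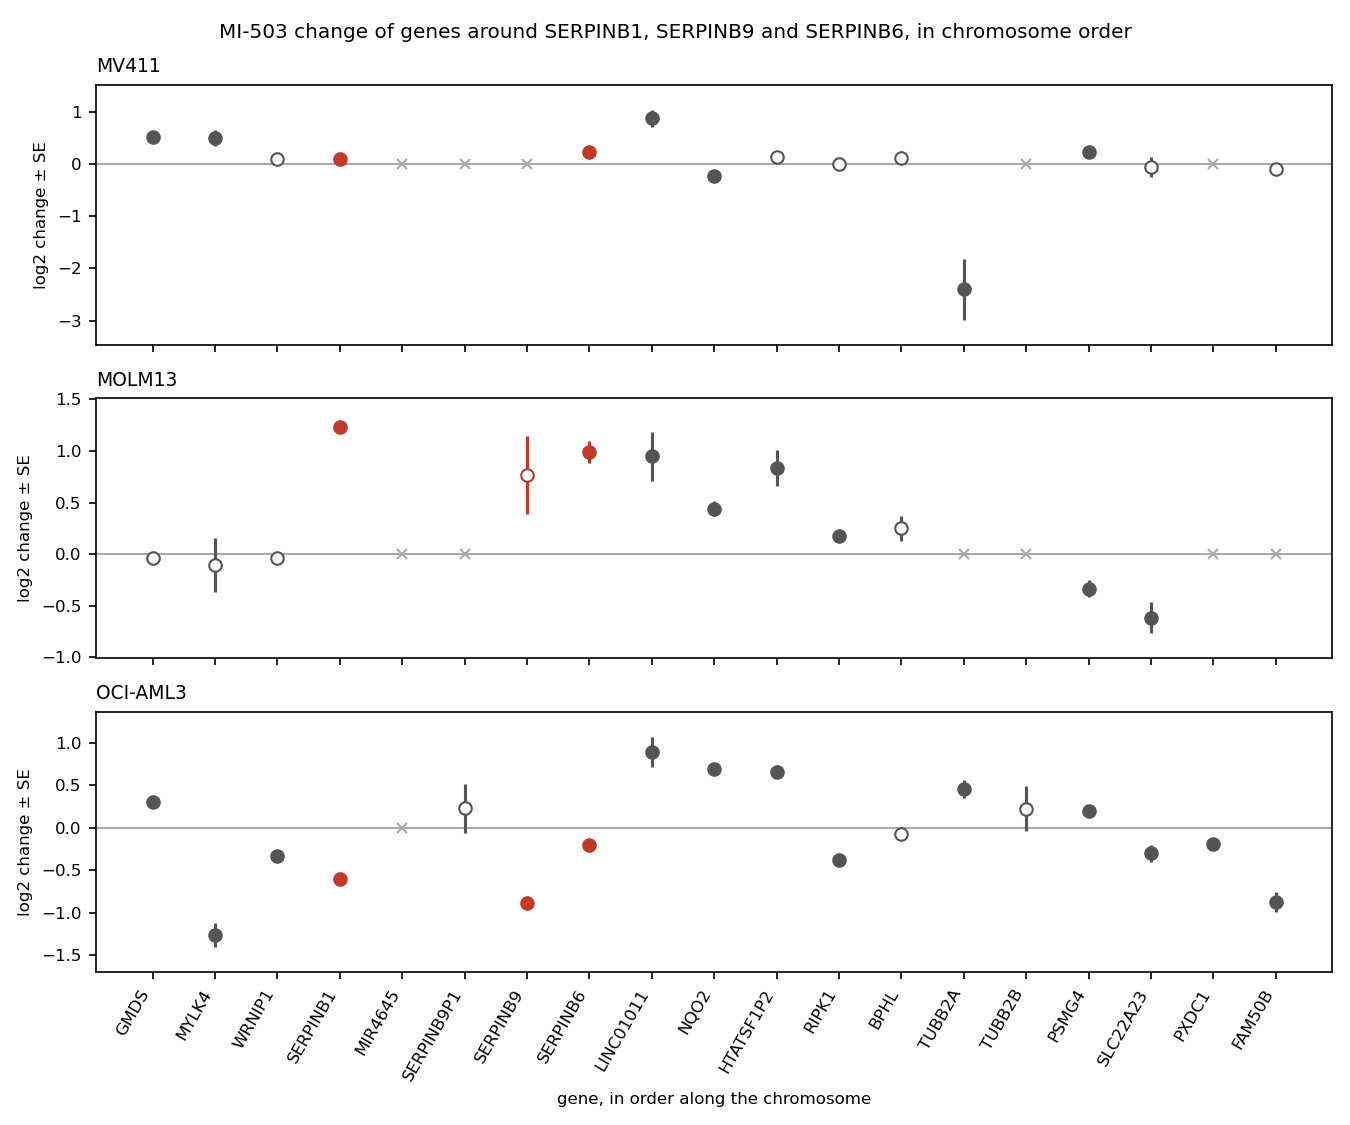
Log2 change with MI-503 (y axis) of the genes within 1 Mb of the SERPINB1, SERPINB9 and SERPINB6 cluster on chromosome 6, in chromosome order (x axis), 1 panel per line. Symbols are as for chromosome 18: red for members, grey for other genes, filled when called, white when not, crosses under the filter. The members lie above 0 in MV411 and MOLM13 where tested and at -0.60, -0.89 and -0.20 in OCI-AML3.

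Because MV411 was also given AC220, the menin inhibitor could be read a further time in libraries that the selection of SERPINB10 had not used, as the combination against AC220 alone. SERPINB10 had values of 6.7, 8.0 and 10.3 with AC220 and 63.2, 57.0 and 70.8 with both drugs, again wholly apart. It rose by 2.80 ± 0.202 (6.99-fold, limma adjusted p = 3.67e-11), with 181 reads against 26, a ratio of 7.62 and a counting interval of 5.03 to 12. SERPINB2 had 4.8, 8.0 and 10.3 with AC220 and 35.0, 26.5 and 29.8 with both drugs, and rose by 1.90 ± 0.430 (3.72-fold, limma adjusted p = 6.49e-04). The MI-503 libraries of MV411, which this comparison does not use, were enough for these low genes to pass the filter. The combination libraries and the AC220 library at 10.3, which it does use, also reached the filter's minimum of 10. SERPINB6 rose by 0.24 (adjusted p = 2.69e-04) and SERPINB1 by 0.13 (adjusted p = 0.00845), and SERPINB8 did not pass at 0.05 ± 0.0449 (adjusted p = 0.344, limma). Together 4 of 5 tested members rose, or 2 of 3 without SERPINB2 and SERPINB10, where 27.4% of genes were called higher and 28.1% lower. Their median was 0.24, or 0.13 without both, beside -0.01 for all genes. BCL2 fell by 2.09 and KDSR rose by 0.74 in the same comparison.

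With AC220 alone SERPINB1 and SERPINB8 rose, and SERPINB2 was called on few reads. SERPINB1 went from 3949, 3774 and 3939 to 5772, 5917 and 5646, a change of 0.57 ± 0.0392 (1.49-fold, adjusted p = 3.67e-12). SERPINB8 rose to 5203, 5239 and 5223, by 0.30 ± 0.0449 (1.23-fold, adjusted p = 2.03e-06). SERPINB2 stood 1.57 ± 0.430 higher (limma adjusted p = 0.00223), but from 8 reads to 24 over the groups. That is a ratio of 2.96 with a counting interval of 1.29 to 7.62, and 1 library was at 4.8 in each group. The SERPINB2 difference was 0.82 without DMSO replicate 2 and 0.58 with a pseudocount of 8. It ranged from 0.58 to 2.08 over the settings tried, all called. No DMSO library reached the filter's minimum, and the interaction below has no test because of the same 8 reads. The SERPINB2 call is therefore only a description. SERPINB10 did not pass (0.30 ± 0.202, adjusted p = 0.185; 26 reads against 20), nor did SERPINB6 (-0.04 ± 0.0492, adjusted p = 0.501). Without SERPINB2 and SERPINB10, 2 of 3 tested members rose (3 of 5 with both), where 37.7% of genes were called higher and 37.3% lower. The median was 0.30 either way, beside 0.01 for all genes. This comparison shares its DMSO libraries with the MI-503 comparison. The AC220 and MI-503 treatments also differ in length, 24 h against 3 days.

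With both drugs, SERPINB1 reached 6133, 6388 and 6409, the highest of the 4 MV411 groups, and rose over DMSO by 0.70 ± 0.0392 (adjusted p = 5.39e-14). SERPINB6 rose by 0.20 (adjusted p = 7.77e-04), and SERPINB8 by 0.35 (adjusted p = 1.49e-07, limma). SERPINB2 gave 86 reads against 8, a ratio of 11.6 with a counting interval of 5.63 to 27.7, and SERPINB10 stood 3.10 higher (no test for either). Without those low genes 3 of 3 tested members rose, where 39.3% of genes were called higher and 40.1% lower. Against MI-503 alone the combination had SERPINB1 higher by 0.60 (adjusted p = 2.31e-12). SERPINB8 fell by 0.39 (adjusted p = 4.81e-08), from 7471, 7134 and 6707 to 5241, 5609 and 5392, and SERPINB2 fell by 1.23 (adjusted p = 0.0141). SERPINB6 did not pass (-0.04, adjusted p = 0.503), and SERPINB10 stood at -1.56 with no test, with all 3 combination libraries below all 3 MI-503 libraries. In that comparison 1 of 4 tested members rose and 2 fell, or 1 and 1 of 3 without SERPINB2, where 34.9% of genes were called higher and 33.6% lower.

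The interaction term asks whether MI-503 changed a gene by a different amount with AC220 present than without it. For SERPINB8 the MI-503 change was 0.74 without AC220 and 0.05 with it, an interaction of -0.69 (limma adjusted p = 5.71e-09). For SERPINB2 the difference between 4.70 without and 1.90 with AC220 was -2.80, given with no test because it rests on the 8 reads of the DMSO group, and it ran from -3.31 to -1.66 over the settings tried. For SERPINB1 the interaction was 0.03 (adjusted p = 0.700) and for SERPINB6 -0.00 (adjusted p = 0.993), so no difference was detected for either. SERPINB10, given with no test, stood at -1.86. Of 3 tested members 0 had a higher and 1 a lower interaction, where 20.9% of genes were called higher and 21.6% lower. SERPINB8 was thus the tested member in which the MI-503 step was smaller in the presence of AC220.

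Between the lines the MI-503 step of SERPINB1 differed in all 3 pairs. The difference was -1.14 for MV411 minus MOLM13 (limma adjusted p = 9.21e-15), and the step was 0.70 larger in MV411 than in OCI-AML3 (adjusted p = 4.76e-11) and 1.84 larger in MOLM13 than in OCI-AML3 (adjusted p = 1.15e-15). SERPINB6 had differences of -0.75 (adjusted p = 1.78e-06), 0.44 (adjusted p = 2.84e-07) and 1.19 (adjusted p = 1.06e-08) in the same order. For SERPINB8 no difference passed: -0.12 (adjusted p = 0.0926), -0.14 (adjusted p = 0.0625) and -0.02 (adjusted p = 0.774), with standard errors of 0.0595 to 0.0655. SERPINB2 stood at -0.72 for MV411 minus MOLM13, at 2.90 for MV411 minus OCI-AML3 and at 3.63 for MOLM13 minus OCI-AML3, with no test. Over the settings tried these ran from -3.70 to 0.31, from 1.17 to 3.42 and from 0.86 to 7.38, since MOLM13 had 0 reads with DMSO and the pseudocount sets the size. SERPINB9 had a difference of 1.65 between MOLM13 and OCI-AML3 (adjusted p = 2.68e-04). SERPINB10 stood at -1.47, 1.28 and 2.75 with no test, and at -0.23, 0.40 and 0.63 with a pseudocount of 8. Treatment lasted 3 days in MV411 and 4 in the other lines, so line and time cannot be told apart in the comparisons with MV411.

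Among members, again without SERPINB2 and SERPINB10, 2 of 3 tested were lower in the MV411 and MOLM13 comparison, where 26.3% of genes were called higher and 30.6% lower. With MV411 set against OCI-AML3 2 of 3 were higher, where 31.3% of genes were called higher and 31.8% lower. With MOLM13 set against OCI-AML3 3 of 4 were higher, where 32.4% of genes were called higher and 30.5% lower. The split of all genes depended on the scale. The deposited factors of MV411 equal median-of-ratios factors, and those of MOLM13 and OCI-AML3 do not. A difference from MV411 on the deposited scale therefore also holds the shift of the median gene in the other line. It was 3382 higher and 3934 lower for MV411 against MOLM13 and 8917 and 1037 on the deposited scale, where the median moved by 0.52. The OCI-AML3 comparison with MV411 had 4294 higher and 4355 lower, and 1773 and 914 as deposited (median 0.16). The OCI-AML3 comparison with MOLM13 had 4215 higher and 3973 lower, and 612 and 2610 as deposited (median -0.37). On that scale SERPINB8 turned to 0.41 between MV411 and MOLM13 (adjusted p = 7.23e-05) and SERPINB1 was -0.60 there and still called, while SERPINB6 at -0.22 (adjusted p = 0.0949) and at 0.60 between MV411 and OCI-AML3 (adjusted p = 0.0822) were no longer called.

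Levels of different members can be compared per length of transcript, as RPKM (reads scaled to transcript length and library depth), with the longest coding transcript of each gene as its length. In MV411 with DMSO SERPINB1 (58.3) and SERPINB8 (47.9) led, then SERPINB6 (12), and SERPINB10 (0.120), SERPINB2 (0.0467) and SERPINB9 (0.0375) were near 0. With MI-503 SERPINB8 (80.4) stood above SERPINB1 (62.5), and SERPINB10 reached 3.51 and SERPINB2 1.33. MOLM13 had SERPINB1 at 30.7, SERPINB8 at 10.1 and SERPINB6 at 0.737 with DMSO, and 72.0, 18.3 and 1.46 with MI-503, where SERPINB10 (2.58) overtook SERPINB6. In OCI-AML3 with DMSO the order was SERPINB1 (49.1), SERPINB8 (18.9), SERPINB9 (17.1), SERPINB6 (16.6), SERPINB2 (4.58) and SERPINB10 (3.67), and the ranges of SERPINB9 and SERPINB6 overlapped. With MI-503 SERPINB10 (40.0) came first beside SERPINB8 (36.5), with overlapping ranges, then SERPINB1 (33.6), SERPINB2 (16.5), SERPINB6 (15) and SERPINB9 (9.61). In OCI-AML3 SERPINB10, selected on its MI-503 increase, went from last to first of the 6 members passing the filter by this measure. SERPINB6 has the longest transcript of the 7 (5620 bases against 2122 for SERPINB10), which lowers its value if a shorter form is made. Its coding bases number 1128. Its place in the order, and which member leads in a group, therefore depend on the length chosen.

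The reads of SERPINB10 and SERPINB2 did not keep a fixed ratio. SERPINB10 had 2.60 reads for each read of SERPINB2 in MV411 with MI-503, 1.08 with AC220 and 2.10 with both drugs, and 3.30 in MOLM13 with MI-503. In OCI-AML3 the ratio was 0.793 with DMSO (0.741 to 0.866 over the libraries) and 2.39 with MI-503 (2.34 to 2.43), so the OCI-AML3 groups were apart. In MV411 with DMSO it was 2.50, from 20 reads against 8.

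Across the 24 libraries, each taken relative to the DMSO mean of its own line, SERPINB10 and SERPINB2 had a Pearson r of 0.92, SERPINB10 and SERPINB8 0.89, SERPINB2 and SERPINB8 0.78 and SERPINB1 and SERPINB6 0.80. SERPINB2 and SERPINB6 had 0.74, SERPINB6 and SERPINB10 0.67, SERPINB1 and SERPINB2 0.59, SERPINB6 and SERPINB8 0.43, SERPINB1 and SERPINB10 0.41 and SERPINB1 and SERPINB8 0.15. Pairs on the same chromosome thus ran from 0.78 to 0.92 and pairs across chromosomes from 0.15 to 0.74. Every chromosome 18 pair holds SERPINB10, selected on its MI-503 increase in these libraries, or SERPINB2. In MV411 and MOLM13 SERPINB2 passed the filter only through treated libraries. The separation in r is therefore partly set by the selection and the filter, and is no test of neighbourhood. The r values describe libraries that share lines, treatments and depth, and no p is given. Among 12637 genes that passed in all 3 tables, those most like SERPINB10 were BST2 (r = 0.96), MARCO (0.95), MARCKS (0.94), CHST2 (0.93) and TREM2 (0.92). MARCO, a scavenger receptor, stood 1.85, 3.30 and 2.01 above DMSO with MI-503 in MV411, MOLM13 and OCI-AML3. BST2, which tethers virus particles at the cell surface, stood at 0.67, 0.75 and 0.30. The genes most like SERPINB1 were PLEK (0.99) and SEMA4A (0.98), those most like SERPINB2 were SRSF8 (0.97) and CLTCL1 (0.95), those most like SERPINB6 were NAV3 and TLR4 (0.97 each), and those most like SERPINB8 were PYGO2 and ZNF619 (0.95 each).

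A list of 25 genes holds proteases that clade B serpins are known to inhibit, related proteases of the same compartments, and AZU1, an inactive relative of elastase that is no protease. With MI-503 in MV411 15 of 18 tested rose and 0 fell (median 0.44 beside -0.01 over all genes). In MOLM13 10 of 16 rose and 2 fell (median 0.31), and in OCI-AML3 13 of 20 rose and 2 fell (median 0.29). Over all genes tested, 29.8% were called higher and 30.8% lower in MV411, 29.9% each way in MOLM13 and 32.8% each way in OCI-AML3. PRTN3, which encodes proteinase 3, a target of SERPINB1, rose in all 3 lines, by 1.16, 0.84 and 1.14. CTSL, a lysosomal cysteine protease, rose by 1.22, 0.97 and 1.04 in MV411, MOLM13 and OCI-AML3. CTSG, cathepsin G, rose by 0.23, 0.81 and 0.34, and CTSS, a cathepsin of antigen-presenting cells, by 0.97, 0.24 and 0.41, in the same order. ELANE, neutrophil elastase, rose by 1.55 in MV411, from a mean of 2335 to 6847 (adjusted p = 1.88e-14, limma), and by 0.23 in OCI-AML3, and fell by 0.27 in MOLM13. AZU1 likewise rose by 1.17 in MV411 and 0.53 in OCI-AML3 and fell by 0.21 in MOLM13. CTSK rose by 1.00 in MOLM13 and did not pass in MV411 (-0.15) or OCI-AML3 (-0.01). In OCI-AML3 GZMA, which encodes granzyme A, rose by 2.23 from a mean of 89.0 to 421, and CTSV by 1.44, while CTSV did not pass in MV411 (-0.10). FURIN, named for being the target of SERPINB8, rose by 0.24 in MV411 and did not pass in MOLM13 (0.07) or OCI-AML3 (0.06), and it rose by 0.72 with AC220. With AC220 10 of 18 of the proteases rose and 2 fell (median 0.30 beside 0.01), where 37.7% of genes were called higher and 37.3% lower.

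The plasminogen activation list, the pathway that SERPINB2 restrains, holds 12 genes. In MV411 3 of 11 tested rose and 6 fell with MI-503 (median -0.51), where 29.8% of all genes were called higher and 30.8% lower. In MOLM13 6 of 7 rose and 0 fell (0.38), where 29.9% were called each way. In OCI-AML3 6 of 11 rose and 4 fell (0.17), where 32.8% were called each way. PLAU, which encodes urokinase, the target of SERPINB2, rose by 0.32 in MV411, 0.65 in MOLM13 and 0.98 in OCI-AML3. PLAUR, its receptor, fell by 0.92 in MV411 and rose by 0.14 in MOLM13 and 0.69 in OCI-AML3. THBD, thrombomodulin, fell by 0.51 in MV411 and rose by 0.98 in MOLM13 and 0.17 in OCI-AML3. S100A10, which binds plasminogen at the cell surface with annexin A2, fell by 1.12 in MV411 and by 0.35 in OCI-AML3 and rose by 0.37 in MOLM13. ANXA2, annexin A2, fell by 0.51 in MV411 and rose by 0.50 in OCI-AML3, and did not pass in MOLM13 (-0.08). PLGRKT, a plasminogen receptor, rose in all 3 lines, by 1.12, 0.38 and 0.33.

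Serpins of the other clades were called in both directions, as all genes were. Of 19 listed, 9 were tested in MV411 with 3 higher and 3 lower (median 0.19), beside 29.8% and 30.8% of all genes. In MOLM13 6 were tested with 2 higher and 1 lower (0.15), beside 29.9% each way. In OCI-AML3 10 were tested with 3 higher and 4 lower (-0.25), beside 32.8% each way. SERPINA1, alpha-1-antitrypsin and the secreted inhibitor of elastase, rose by 0.37 in MV411 and 0.28 in OCI-AML3. In MOLM13 its mean went from 3.26 to 44.2, and as it passed the filter there only through MI-503 libraries its count among the higher genes adds nothing. SERPINE2, protease nexin 1, fell by 1.85 in MV411 with MI-503 and by 4.88 with AC220, and rose by 0.24 in OCI-AML3 with MI-503. SERPINH1, a collagen chaperone, rose by 0.42 in MV411 and 0.56 in OCI-AML3 and fell by 0.20 in MOLM13. SERPINI2 rose by 1.61 in MOLM13 and fell by 0.34 in OCI-AML3, and in MV411 it rose by 1.01 with AC220 and did not pass with MI-503 (0.43). SERPINF1 rose in MV411 by 0.19 with MI-503 and 1.33 with AC220 and fell by 0.54 in OCI-AML3.

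Markers of other cell types and stages were read beside the members. The summed value of 15 monocyte and macrophage markers was 40044 to 41563 in the MV411 DMSO libraries, 182545 to 193884 under MI-503, 75991 to 81733 under AC220 and 212918 to 213552 under both. It was 8360 to 8636 in MOLM13 with DMSO and 22442 to 26440 with MI-503, and 86014 to 88766 and 90380 to 92410 in OCI-AML3. In MV411 the sum rests on LYZ, lysozyme (mean 30030 with DMSO and 176318 with MI-503). With MI-503 6 of 11 tested markers rose and 2 fell in MV411, 8 of 9 rose and 0 fell in MOLM13, and 6 of 14 rose and 7 fell in OCI-AML3. The shares over all genes were 29.8% higher and 30.8% lower in MV411, 29.9% each way in MOLM13 and 32.8% each way in OCI-AML3. The marker counts that follow stand beside the same shares, and many rest on few tested genes. CSF1R, the receptor of the macrophage growth factor, rose by 2.43 in MOLM13 and fell by 2.46 in OCI-AML3, and ITGAM, the CD11b chain, rose by 1.21 and 2.41 there. Of the 15 genes CD163 and FCN1 had no read in MV411 with DMSO, and CD163, MRC1 and VCAN had none there with MI-503. Of 9 myeloid leukaemia cell markers 4 of 8 tested rose and 2 fell in MV411, 7 of 8 rose and 1 fell in MOLM13, and 1 of 7 rose and 5 fell in OCI-AML3. These markers were present in all lines, with summed values of 39210 to 41232 in MV411, 28098 to 29197 in MOLM13 and 121391 to 124692 in OCI-AML3 with DMSO, and 34396 to 35064, 29190 to 31134 and 82292 to 84315 with MI-503. T and NK cell markers, of which NKG7 held most, summed to 886 to 918 in MV411 with DMSO and 1728 to 1882 with MI-503. Of 10 such genes 2 of 2 tested rose in MV411, 1 of 1 in MOLM13 and 1 of 1 in OCI-AML3. Of the B cell markers 0 of 4 tested rose and 4 fell in MV411, 1 of 3 rose and 1 fell in MOLM13, and 0 of 2 rose and 1 fell in OCI-AML3. Erythroid and megakaryocyte markers gave 1 higher and 2 lower of 4 in MV411, 1 higher of 1 in MOLM13 and 1 higher of 2 in OCI-AML3. Keratinocyte and epithelial markers gave 0 higher and 1 lower of 3 in MV411 and in MOLM13, and 2 higher of 4 in OCI-AML3. The part of these markers in the serpin results was not tested.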

How the data were processed

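The deposited tables hold, for MV411, MOLM13 and OCI-AML3, a signal for each of 25680 genes: read counts that the authors normalised with DESeq version 2 on hg38, per the submitters' processing notes. Polyadenylated RNA, with a spike-in added before extraction, was read as 50 bp pairs, per the labels' protocols. The aligner, the counting program and the annotation are not given in the sources used here. In every library 100% of values were whole reads over a single factor (tolerance 0.001). Factors of MV411 were those of the median-of-ratios method, and those of MOLM13 and OCI-AML3 were not (ratios of 0.768 to 1.26 and 0.785 to 1.23), so these tables, and line differences, were rescaled to median-of-ratios factors. The number of sample columns left out was 0.

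Each contrast was fitted with limma 3.58.1 in R 4.3.3 to log2 of the value plus 1, with a trended variance, two-sided, after a filter (10 in 3 or more libraries of a table). The 12 MV411 libraries shared a fit, and line differences used MI-503 and DMSO libraries of 2 tables over genes kept in both. The method was tested on simulated reads. On the recovered reads edgeR 4.0.16 called 8822 genes for MI-503 in MV411, against 8734 by limma. DESeq2 1.42.0, TMM factors, other pseudocounts and filters, a replicate block and leaving out each library were alternatives. Same-numbered libraries did not deviate together (r of -0.08 to 0.12 over 18 pairs in MV411), so numbers were not taken to pair them. Replicates differed by more than counting noise (chi-square per degree of freedom 1.57 to 8.94), so no library was a duplicate. Floors of 3 reads and 95% exact intervals cover counting error only.

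The members, the gene lists and the tests were chosen with earlier results of these data known. All members are named, with neighbours within 1 Mb (up to 4 called ones of largest change and the nearest on each side), up to 4 called genes of largest change with a group mean of at least 100 per list, and the 5 (SERPINB10) or 2 (other members) genes of highest correlation. SERPINB10 has no test where a contrast measures MI-503 in the libraries of its selection or uses those MI-503 libraries. Positions come from GENCODE 29.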

Additional observations from a re-analysis of the deposited data

Results flagged for a closer look

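The MI-503 change of some members differed between settings of the same contrast, by a limma test of the difference itself for all but SERPINB2. With AC220 present against absent in MV411 the change differed by -0.69 for SERPINB8, the furin inhibitor. For SERPINB2, the urokinase inhibitor, the difference stood at -2.80 (no test). Between MV411 and MOLM13 the MI-503 change differed by -1.14 for SERPINB1 and by -0.75 for SERPINB6. Between MV411 and OCI-AML3 it differed by 0.70 for SERPINB1 and 0.44 for SERPINB6, and stood at 2.90 for SERPINB2 (no test). Between MOLM13 and OCI-AML3 it differed by 1.84 for SERPINB1, 1.19 for SERPINB6 and 1.65 for SERPINB9, and stood at 3.63 for SERPINB2 (no test). SERPINB2 passed the filter in MV411 and MOLM13 only through treated libraries, on 8 and 0 reads with DMSO, so its values only describe the libraries. Over the settings tried they ran from -3.31 to -1.66 with and without AC220, from 1.17 to 3.42 for MV411 against OCI-AML3 and from 0.86 to 7.38 for MOLM13 against OCI-AML3. Treatment lasted 3 days in MV411 and 4 days in the other lines.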

How the results depend on the processing

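Of 961 values of single members under other settings 914 kept their direction and their side of the threshold, and 11 changed sign. SERPINB6 had an interaction of -0.00, which was 0.0022 with DESeq2 and ran from -0.0297 to 0.0403 with 1 library left out. SERPINB2 between MV411 and MOLM13 was 0.31 with a pseudocount of 8. On the deposited scale, where MV411 has factors of another kind than the other lines, SERPINB8 was 0.41 between MV411 and MOLM13. There it was 0.0158 between MV411 and OCI-AML3. Between MOLM13 and OCI-AML3 SERPINB8 ran from -0.0508 to 0.0326 on the main scale with 1 library left out. The cause was not tested. The counts here include SERPINB2, which had to differ from DMSO with MI-503 in MV411 and MOLM13. Without it 3 members were called with MI-503 in each of these lines, on the main settings. Of 183 counts of called members 181 stayed within 1.5 times. The exceptions were 3 of 5 in OCI-AML3 on the deposited scale and 2 of 4 between MOLM13 and OCI-AML3 with a minimum value of 50, where fewer genes were tested. With 1 library left out the counts ran from 3 to 4 for MI-503 in MV411 and from 4 to 5 in MOLM13. Without the filter SERPINB9 was called in MV411 at -1.90 (limma adjusted p = 0.0207), on 12 reads against 1. With the replicate number as a block the counts were as without it (4 in MV411, 4 in MOLM13 and 5 in OCI-AML3), and the block changed no call. Reads limit SERPINB2 and SERPINB10 in MV411 and MOLM13, and SERPINB7 and SERPINB9 there.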
